A study of Mus musculus with 6 samples.

Results

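Immediate early response genes were examined in inguinal white adipose tissue (iWAT), the subcutaneous fat depot of the mouse groin. The 10 genes were taken by symbol (*Fos*, *Fosb*, *Jun*, *Junb*, *Egr1*, *Nr4a1*, *Atf3*, *Ier2*, *Zfp36* and *Dusp1*). Each was found on 1 row of a table of 19445 gene loci, and all 10 were tested, as were the 11692 loci in all whose average FPKM exceeded 1 in transgenic or in wild-type mice. *Fosb* met that filter only through the transgenic mice.

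RNA-Seq was performed on iWAT of 3 *Hlx* transgenic mice and 3 wild-type littermates, all 12 weeks old and labelled male, with 1 library per mouse. The transgene joins the *Hlx* cDNA to the *aP2* (*Fabp4*) promoter, which is active in fat, so *Hlx* is raised from a fat promoter and not from its own. The transgenic DNA was injected into hybrid C57BL/6 × SJL embryos and the lines were backcrossed to C57BL/6; whether the sequenced mice came from 1 line or several is not given in the sources used here. No agent was given to either genotype. Expression is given as FPKM, reads per length of transcript and per number of mapped reads. This allows for transcript length and depth but does not put all mice on 1 scale. The summed FPKM ranged from 466059 in wild-type replicate 3 to 542096 in transgenic replicate 1, and other scalings were run as alternatives.

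Immediate early genes are switched on within minutes of a signal at the cell surface, by transcription factors that are already present in the cell and need no new protein. Serum response factor acts on many of them together with its partners, and CREB acts on those with a cAMP response element, which in brown and beige fat links them to β-adrenergic signalling. Many encode transcription factors, others encode brakes on the same signals, and their mRNAs are as a rule short-lived. They are also known to respond to handling of the animal and dissection of the tissue.

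*Hlx* itself, whose locus spans 184727144 to 184732493 of chromosome 1 (mm10), averaged 96.2 ± 15.3 FPKM in the 3 transgenic mice and 7.45 ± 0.637 FPKM in the 3 controls (SD), a difference in the labelled direction. *Xist*, the RNA that coats the silenced X chromosome in females, lay between 20.2 and 33.6 FPKM in all 6 libraries, and every one of 28 Y-linked loci was listed at 0, which goes against the label male in every library of both genotypes. Depth was estimated from the steps between the lowest FPKM values and transcript lengths, at about 17400000, 27400000 and 16300000 reads in transgenic replicates 1, 2 and 3 and 23000000, 34900000 and 24700000 reads in the wild-type replicates. At these depths the least covered members rested on about 23 to 152 reads per library (*Fosb*), 72 to 245 (*Atf3*) and 77 to 204 (*Fos*), and every other member on 279 reads or more. Summed markers of adipocytes (6 of 6 in the table) overlapped between the genotypes, at 28397 to 33562 FPKM in transgenic and 24533 to 30458 FPKM in wild-type mice, but 1 gene, *Fabp4*, made up most of the sum and was higher in every transgenic mouse, while *Adipoq* and *Lpl* were lower in every one. Macrophage markers (5 of 6 in the table) summed to 345 to 490 FPKM in transgenic and 732 to 932 FPKM in wild-type mice, and all 5 were lower in every transgenic mouse. The sums of fibroblast or progenitor markers (5 of 5) were also lower, at 1036 to 1389 FPKM against 1583 to 1827 FPKM, but only *Dpt* and *Dcn* did not overlap. The sums of endothelial markers (5 of 5) were higher, at 140 to 148 FPKM against 124 to 134 FPKM, through *Cdh5*, *Kdr* and *Emcn*, whereas *Pecam1* and *Tek* overlapped. Those of neutrophil markers (4 of 5) were higher as well, at 21.1 to 54.5 FPKM against 7.98 to 20.5 FPKM, mostly through *S100a8* and *S100a9*, whereas *Csf3r* was lower in every transgenic mouse. The sums of lymphocyte, smooth muscle or pericyte, skeletal muscle and epithelial markers overlapped. In whole tissue, fewer cells of a type and less RNA per cell cannot be told apart.

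The members differed in the direction they took in transgenic iWAT. *Jun* and *Atf3* were higher, *Zfp36* was lower, and the other 7 were not called (limma, adjusted p under 0.05, Benjamini-Hochberg over the 11692 loci). The 2 of 10 members called higher stand beside 11.6% of all tested loci, and the 1 of 10 called lower beside 7.03%. The genotypes did not overlap at 5 members (*Jun*, *Atf3*, *Zfp36*, *Junb* and *Ier2*), and they did not overlap at 42.9% of all tested loci. With 10 genes these shares are near the background and give no result about the members as a group. Their median log2 change was 0.13, beside -0.01 over all tested loci, with 6 members positive and 4 negative. At an unadjusted p under 0.05 (limma) there were 5 members, and 4230 of the 11692 loci. For *Jun*, *Junb*, *Atf3*, *Ier2* and *Zfp36* the exact two-sided permutation test gave p = 0.1, the smallest value that 3 mice against 3 allow. Log2 changes are differences of mean log2(FPKM + 1), a scale that shrinks the changes of genes with few reads, such as *Fosb*.

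**Figure D1:**
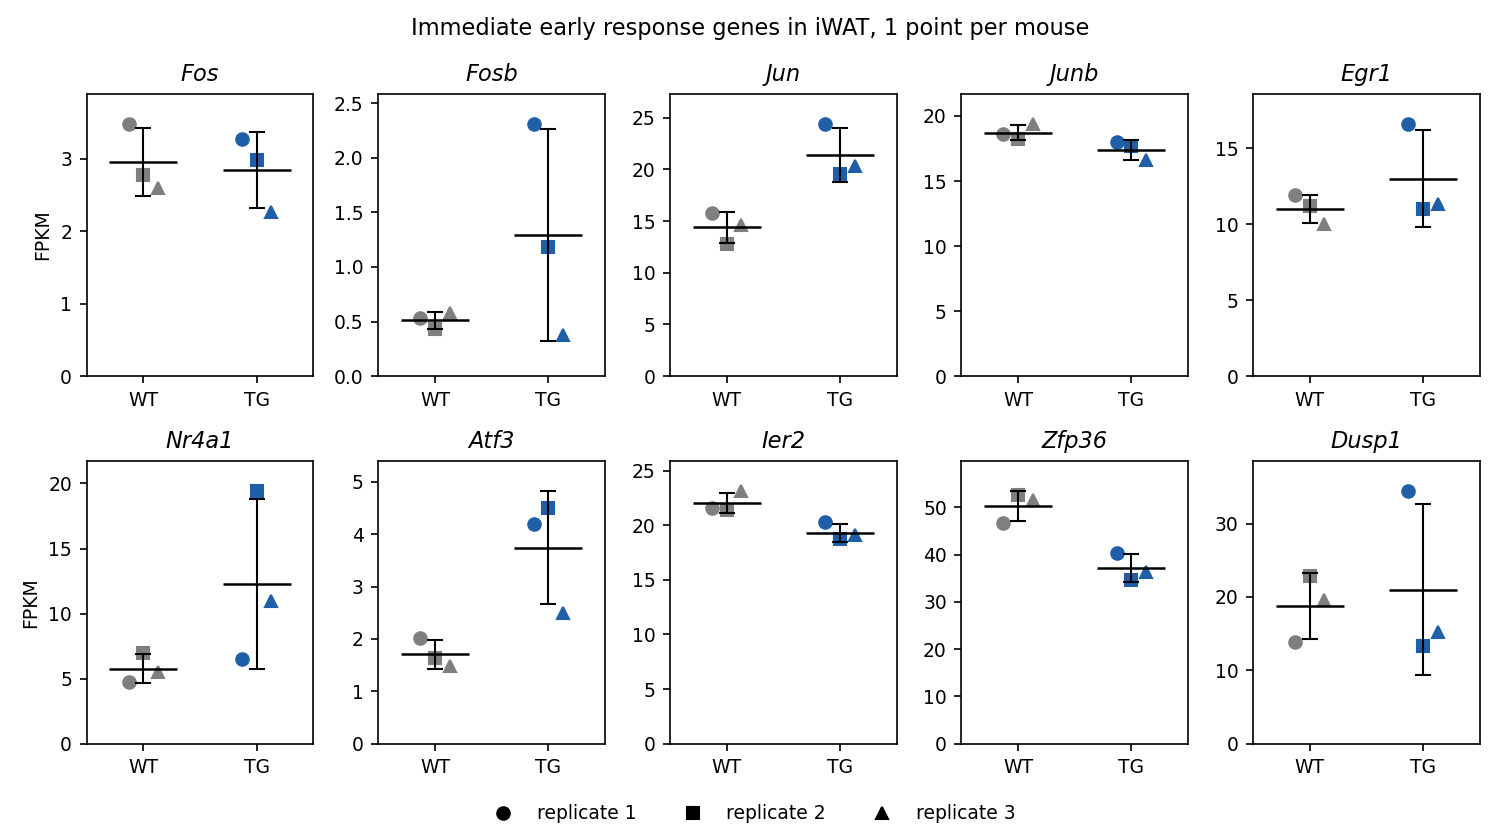
FPKM (vertical axes, from 0, 1 scale per gene) of each of the 10 genes in the 3 wild-type (WT, grey) and 3 transgenic (TG, blue) mice, with the replicate shown by the marker shape and the mean ± SD in black. *Jun* lies at 19.5 FPKM or more in every transgenic mouse and at 15.8 FPKM or less in every control, whereas *Dusp1* ranges from 13.3 to 34.4 FPKM within the transgenic mice.

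The windows before the transcription starts of 5 members are given to show which known response elements they hold: *Jun* and *Atf3*, which were called higher, *Nr4a1* and *Fosb*, whose transgenic values varied widely, and *Fos*. The windows of *Zfp36* and *Dusp1* reach into annotated exons of these genes and are described without their letters. RefSeq promoter windows of build GRCm38.p6, the assembly that mm10 is made from, were matched for 8 of the 10 members, all but *Egr1* and *Ier2*. The 250 bases before the start are printed 5′ to 3′ on the gene's strand, for *Fos* at chr12:85473640-85473889 (plus strand), *Fosb* at chr7:19310046-19310295 (minus), *Jun* at chr4:95052223-95052472 (minus), *Atf3* at chr1:191183334-191183583 (minus) and *Nr4a1* at chr15:101266596-101266845 (plus). Capitals mark every match to the cAMP response element (CRE) half-site TGACG or its reverse complement CGTCA, the 8-base AP-1 form TGACATCA, the EGR site GCGGGGGCG or GCGTGGGCG (reverse complement included) and, on the gene's strand, the TATA box TATAAA.
Fos: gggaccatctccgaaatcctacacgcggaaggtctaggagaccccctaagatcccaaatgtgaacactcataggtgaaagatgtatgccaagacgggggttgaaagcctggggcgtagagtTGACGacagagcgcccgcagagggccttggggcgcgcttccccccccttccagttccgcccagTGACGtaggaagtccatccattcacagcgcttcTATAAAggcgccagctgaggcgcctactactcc
Fosb: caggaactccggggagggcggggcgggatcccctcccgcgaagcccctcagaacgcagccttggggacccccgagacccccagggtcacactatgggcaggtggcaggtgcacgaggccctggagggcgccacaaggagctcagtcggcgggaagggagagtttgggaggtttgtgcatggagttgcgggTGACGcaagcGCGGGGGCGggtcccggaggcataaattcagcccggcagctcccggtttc
Jun: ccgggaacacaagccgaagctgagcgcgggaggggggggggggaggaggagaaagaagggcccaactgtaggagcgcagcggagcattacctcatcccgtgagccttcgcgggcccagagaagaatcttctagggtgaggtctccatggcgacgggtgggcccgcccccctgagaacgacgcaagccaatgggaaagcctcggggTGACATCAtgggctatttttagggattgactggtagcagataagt
Atf3: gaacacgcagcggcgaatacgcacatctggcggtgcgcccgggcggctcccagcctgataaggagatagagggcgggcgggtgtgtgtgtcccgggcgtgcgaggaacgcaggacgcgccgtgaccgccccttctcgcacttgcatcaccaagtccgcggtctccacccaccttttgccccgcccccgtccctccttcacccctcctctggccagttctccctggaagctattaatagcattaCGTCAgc
Nr4a1: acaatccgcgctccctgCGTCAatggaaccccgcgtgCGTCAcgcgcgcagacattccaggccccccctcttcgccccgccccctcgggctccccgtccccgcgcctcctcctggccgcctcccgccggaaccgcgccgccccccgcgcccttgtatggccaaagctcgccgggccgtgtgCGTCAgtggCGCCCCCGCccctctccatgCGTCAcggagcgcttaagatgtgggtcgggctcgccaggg

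A CRE half-site was present in 6 of the 8 windows (*Fos*, *Fosb*, *Junb*, *Nr4a1*, *Atf3* and *Dusp1*) and in 17.8% of the 32851 windows of the same length in the RefSeq table. *Nr4a1* held 4 such half-sites, the first base of the nearest lying 40 bases before the start. The *Nr4a1* window lies inside the tested locus, which begins at 101258127, so it precedes an internal start. The full CRE TGACGTCA, which contains the half-site on both strands, was found in *Dusp1* alone of the members, 143 bases before the start, and in 1.55% of all windows. *Jun* held no CRE half-site, but the 8-base AP-1 form, through which Jun is known to act on its own gene, began 45 bases before its start (2.93% of all windows). The tested *Jun* locus, on the minus strand, reaches to 95052296, which is inside the window. This site thus lies within the tested locus, although no annotated exon covers it. An EGR site was found in *Fosb*, *Nr4a1* and *Zfp36* (3.06% of all windows), a serum response factor CArG box in *Zfp36* (1.47%), and a TATA box in *Fos* (7.59%). The AP-1 site TGANTCA was in none of the 8 and in 6.75% of all windows. The members with a CRE half-site include *Atf3*, which was called higher, and *Fos* and *Junb*, which were not called. The *Atf3* half-site, its first base 7 bases before the start, lies within the annotated *Atf3* exon. An annotated *Zfp36* exon covers the whole *Zfp36* window, with its EGR site and CArG box. The members' windows had a median GC content of 65.8%, against 52.4% for all windows. These are matches of letters in a short window, and say nothing of whether a factor was bound.

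Of the AP-1 factors, the leucine zipper proteins that bind DNA as dimers of a Jun with a Fos or another Jun, *Jun* was called higher, and *Junb*, *Fos* and *Fosb* were not called. *Jun*, on chromosome 4 from 95049035 to 95052296, had 24.4, 19.5 and 20.3 FPKM in transgenic replicates 1, 2 and 3 and 15.8, 12.8 and 14.6 FPKM in the wild-type replicates. Every transgenic mouse lay above every control. The means were 21.4 ± 2.62 and 14.4 ± 1.51 FPKM (SD, n = 3 each), a ratio of 1.49. The log2 change was 0.54 ± 0.11 (standard error), with a limma adjusted p of 0.0202. The call was lost without wild-type replicate 2 (adjusted p = 0.0637), wild-type replicate 3 (0.0620) or transgenic replicate 3 (0.0535), with log2 changes of 0.46, 0.55 and 0.57. Exons of the annotated antisense gene *Junos* overlap the locus, and whether the authors counted by strand is not given in the sources used here.

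*Junb*, which encodes a Jun protein known to activate less strongly than Jun on many of the same sites, had a transgenic mean of 0.930 times the wild-type mean. Its values were 18.0, 17.7 and 16.6 FPKM in transgenic and 18.6, 18.2 and 19.4 FPKM in wild-type mice. The genotypes did not overlap, but the log2 change was -0.10 (95% interval -0.27 to 0.07, limma adjusted p = 0.352). In wild-type iWAT *Junb* was 1.30 times as high as *Jun*, with no overlap of the 3 values. In transgenic iWAT the order was the other way round, with *Jun* at 21.4 FPKM and *Junb* at 17.4 FPKM, and all 3 *Jun* values above all 3 *Junb* values.

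*Fos*, the partner of Jun in the classical AP-1 dimer, was low in both genotypes. On chromosome 12 from 85473900 to 85477270, it had 3.27, 2.98 and 2.26 FPKM in transgenic and 3.48, 2.77 and 2.59 FPKM in wild-type mice, so that the genotypes overlapped over most of their range. The log2 change was -0.04 (95% interval -0.38 to 0.29, limma adjusted p = 0.844). *Fos* thus lay at a ratio of 0.962 where *Jun* lay at 1.49, and the difference between these changes was not tested.

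*Fosb*, which encodes a second Fos protein, was the lowest member in both genotypes. On chromosome 7 from 19302695 to 19310045, it had 2.31, 1.18 and 0.377 FPKM in transgenic and 0.532, 0.428 and 0.574 FPKM in wild-type mice. Transgenic replicate 1 was the highest of the 6 and transgenic replicate 3 the lowest, below every control. The mean ratio of 2.52 was the largest among the members, yet the log2 fold change of 0.51 had a 95% interval of -0.20 to 1.22 (limma adjusted p = 0.261). About 23 reads lay behind the lowest value, which by counting alone gives a coefficient of variation of 20.8%.

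*Atf3*, a leucine zipper factor that is induced by many kinds of cell stress and can pair with Jun, was higher in transgenic iWAT. On chromosome 1 from 191170296 to 191183333, it had 4.20, 4.51 and 2.50 FPKM in transgenic and 2.01, 1.64 and 1.48 FPKM in wild-type mice. All transgenic values were above all wild-type values, and the lowest of them, in replicate 3, lay near the wild-type range. The means were 3.74 ± 1.08 and 1.71 ± 0.275 FPKM (SD, n = 3 each), and the log2 change was 0.78 ± 0.19 (standard error) with a limma adjusted p of 0.0308. The call was lost when any mouse but transgenic replicate 3 was left out, with adjusted p between 0.0525 (without wild-type replicate 1) and 0.0996 (without wild-type replicate 3) and log2 changes from 0.66 to 0.86. It was lost as well with no expression filter (0.0553).

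**Figure D2:**
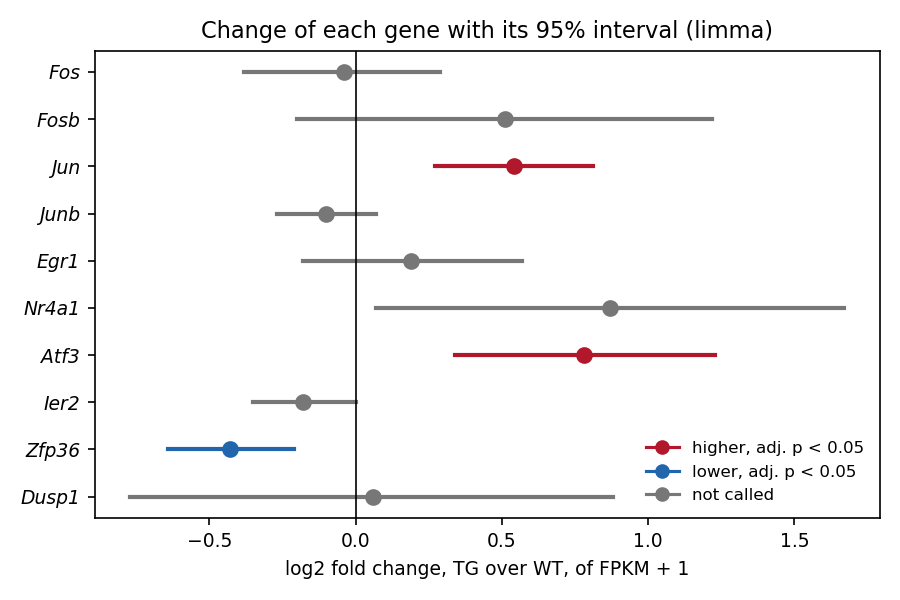
Log2 fold change of FPKM + 1 in transgenic over wild-type iWAT (horizontal axis) for each gene, with its 95% interval from limma, coloured by call. The intervals of *Jun*, *Atf3* and *Nr4a1* lie above 0 and those of *Zfp36* and *Ier2* below 0, though *Nr4a1* and *Ier2* were not called after adjustment, and those of *Fosb*, *Nr4a1* and *Dusp1* are the widest.

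*Egr1* encodes a zinc finger factor that is induced by growth factor signals through serum response factor. On chromosome 18 from 34861206 to 34864956, it had 16.6, 11.0 and 11.3 FPKM in transgenic and 11.9, 11.2 and 10.02 FPKM in wild-type mice. Transgenic replicate 1 was high, and the other two transgenic mice lay within the wild-type range. The log2 change was 0.19 (95% interval -0.18 to 0.57, limma adjusted p = 0.407), and without transgenic replicate 1 it was 0.02.

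*Nr4a1* encodes an orphan nuclear receptor of the NR4A family, known to be induced by cAMP in fat and muscle. On chromosome 15 from 101258127 to 101274794, it had 6.49, 19.4 and 11.0 FPKM in transgenic and 4.75, 6.95 and 5.54 FPKM in wild-type mice. Transgenic replicates 2 and 3 were above every control, and replicate 1 lay within the wild-type range. The means were 12.3 ± 6.54 and 5.75 ± 1.11 FPKM (SD, n = 3 each). The log2 change was 0.87 (95% interval 0.07 to 1.67), and it was not called (limma, adjusted p = 0.112). Without transgenic replicate 1 the log2 change was 1.22 and the adjusted p 0.0298, and this was the 1 of 14 alternative settings in which *Nr4a1* was called. Without transgenic replicate 2 it was 0.50.

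Summed skeletal muscle markers (5 of 6 in the table) were 484 FPKM in transgenic replicate 2, where *Nr4a1* was highest, 65.3 and 92.9 FPKM in transgenic replicates 1 and 3, and 5.38, 94.6 and 24.3 FPKM in the wild-type mice. Among the tested loci outside the members whose profile over the 6 mice lay nearest to that of *Nr4a1* (Euclidean distance between log2(FPKM + 1) values centred on their means) were *Fitm1* (0.478), *Hrc* (0.541) and *Jph2* (0.562). *Hrc* and *Jph2* encode proteins of the calcium stores and membrane junctions of muscle. *Hrc* had 0.376, 4.42 and 0.921 FPKM in transgenic and 0.178, 0.534 and 0.252 FPKM in wild-type mice. These genes were chosen for this likeness, and each averaged under 1 FPKM in the wild-type mice. The part of muscle RNA in the *Nr4a1* values was not tested. For *Fos*, the nearest profiles were those of *Park7* (0.096), *Slc46a1* (0.122), *Zfp385a* (0.124) and the joint locus of *Rhbdl1*, *Rhot2*, *Stub1* and *Wdr90* (0.142), and the genotypes overlapped at all 4.

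Genes that end the early response were led by *Zfp36*, the highest member in both genotypes. It encodes tristetraprolin, which binds AU-rich elements in short-lived mRNAs, including those of several cytokines, and speeds their decay. On chromosome 7 from 28376783 to 28379228, *Zfp36* had 40.4, 34.7 and 36.3 FPKM in transgenic and 46.6, 52.6 and 51.5 FPKM in wild-type mice. Every transgenic mouse lay below every control. The means were 37.1 ± 2.96 and 50.2 ± 3.18 FPKM (SD, n = 3 each), a ratio of 0.739. The log2 change was -0.43 ± 0.09 (standard error), with a limma adjusted p of 0.0202. The call was lost without wild-type replicate 2 (adjusted p = 0.0711), wild-type replicate 3 (0.0693) or transgenic replicate 3 (0.0731), and with the replicate number as a block (0.0524). Macrophage markers were lower in the same mice, as given above, and their part in this difference was not tested. Exons of the antisense gene *Gm44710* overlap the locus.

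*Dusp1* encodes a phosphatase that switches off MAP kinases, and it varied most between the transgenic mice relative to genes of like level. On chromosome 17 from 26505590 to 26508472, it had 34.4, 13.3 and 15.2 FPKM in transgenic and 13.9, 22.8 and 19.6 FPKM in wild-type mice. Transgenic replicate 1 held the highest value and replicate 2 the lowest of the 6. The log2 change was 0.06 (95% interval -0.77 to 0.88, limma adjusted p = 0.921). Its sign turned without transgenic replicate 1 (-0.35), without wild-type replicate 1 (-0.13) and with sample quality weights (-0.21). *Ier2*, a small nuclear protein gene of the early response, was steady by comparison. On chromosome 8 from 84661330 to 84662852, it had 20.3, 18.7 and 19.1 FPKM in transgenic and 21.6, 21.4 and 23.1 FPKM in wild-type mice, with no overlap. Its log2 change was -0.18 (95% interval -0.35 to -0.00), with a limma adjusted p of 0.132.

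By level in wild-type iWAT the order was *Zfp36* (50.2 FPKM), *Ier2* (22.0), *Dusp1* (18.8), *Junb* (18.7), *Jun* (14.4), *Egr1* (11.0), *Nr4a1* (5.75), *Fos* (2.95), *Atf3* (1.71) and *Fosb* (0.511). The 3 values of neighbours overlapped for *Ier2* and *Dusp1* and for *Dusp1* and *Junb*, and for no other pair. In transgenic iWAT more neighbours overlapped: *Jun* and *Dusp1*, *Dusp1* and *Ier2*, *Junb* and *Egr1*, *Egr1* and *Nr4a1*, *Atf3* and *Fos*, and *Fos* and *Fosb*.

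The members differed in how much they varied between mice of 1 genotype. Among the transgenic mice the coefficient of variation of *Dusp1* was 55.5%, against a median of 8.22% for the 2377 tested loci whose transgenic mean was within 1.5-fold of its own. It was 53.2% for *Nr4a1* (median 8.78% at its level), 75.2% for *Fosb* (21.1%) and 24.5% for *Egr1* (8.70%). *Junb* and *Ier2* lay at the other end, at 4.41% and 4.39%, below the medians of 8.37% and 8.24% at their levels. Among the wild-type mice *Dusp1* was also the most variable member, at 24.1% against a median of 7.37%, and *Junb* was at 3.11%.

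The transgenic mice did not share 1 pattern. Of the 3, replicate 1 was highest at 8 of the 10 members (*Fos*, *Fosb*, *Jun*, *Junb*, *Egr1*, *Ier2*, *Zfp36* and *Dusp1*), where it was highest at 43.2% of all tested loci. *Nr4a1* and *Atf3* were highest in replicate 2, and none in replicate 3. For *Dusp1* replicate 1 had 2.26 times the value of the next transgenic mouse, for *Fosb* 1.95 times and for *Egr1* 1.47 times, and for *Junb* 1.02 times. *Nr4a1* was lowest of the 3 in the same mouse. Among the wild-type mice the highest values were divided evenly, with 4 members in replicate 1 and 3 each in replicates 2 and 3.

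**Figure D3:**
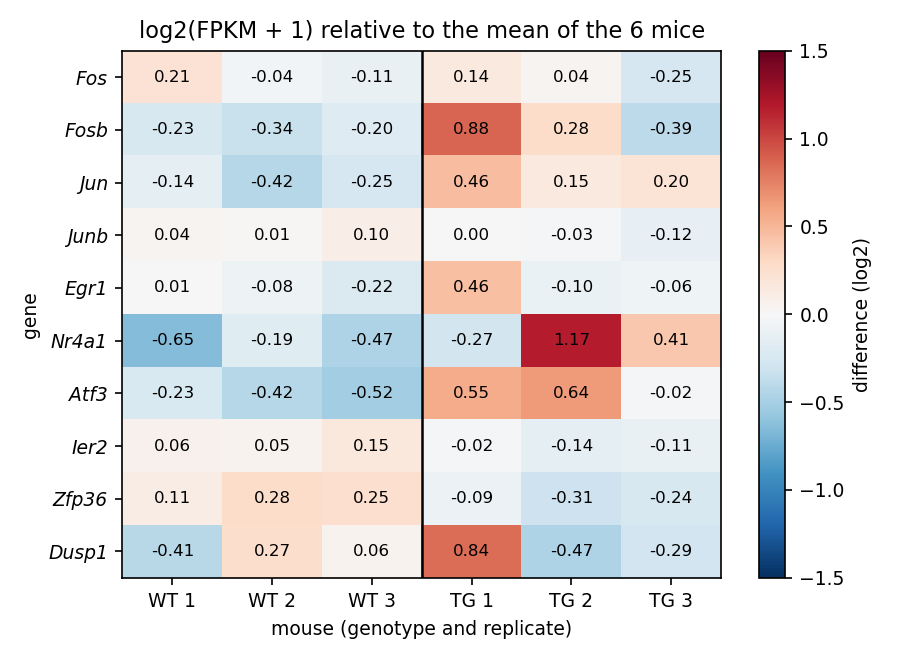
Each cell gives log2(FPKM + 1) of a gene (rows) in a mouse (columns) minus the gene's mean over the 6 mice. The highest values in transgenic replicate 1 are those of *Fosb* and *Dusp1*, at 0.88 and 0.84, followed by *Atf3*, *Jun* and *Egr1* at 0.55, 0.46 and 0.46. The highest of all cells is *Nr4a1* in transgenic replicate 2, at 1.17, while *Junb* and *Ier2* stay close to 0 throughout.

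Other genes of the early response were taken as 7 lists of 88 genes, of which 86 were in the table and 77 passed the expression filter. At an adjusted p under 0.05 (limma), 5 of the 77 were higher and 4 lower, and their median log2 change was -0.07, beside 11.6% and 7.03% called and a median of -0.01 over all tested loci.

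Among 8 tested relatives of the AP-1 factors, 1 was higher and 0 lower, with 1 and 0 at an unadjusted limma p under 0.05. The higher one was *Maff*, a small Maf protein gene, which had 7.15, 10.2 and 6.38 FPKM in transgenic and 2.11, 3.03 and 2.56 FPKM in wild-type mice, with no overlap (log2 change 1.31 ± 0.18, limma adjusted p = 0.00403). It was called in all 14 alternative settings. *Jund*, the most abundant of the Jun genes, had 56.5 ± 4.23 and 56.0 ± 2.69 FPKM (SD, n = 3 each), and the Fos relatives *Fosl1* and *Fosl2* had log2 changes of -0.19 and -0.08, neither of them called.

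Of 6 tested genes of the EGR and NR4A families and the EGR corepressors, 2 were higher and 0 lower, with 2 and 1 at an unadjusted limma p under 0.05. *Nr4a2*, a relative of *Nr4a1*, had 3.81, 3.64 and 2.25 FPKM in transgenic and 1.04, 1.66 and 0.942 FPKM in wild-type mice (log2 change 0.93, limma adjusted p = 0.0198). *Egr2* had 2.95, 3.27 and 3.30 FPKM against 1.86, 1.88 and 2.23 FPKM (0.48, adjusted p = 0.0192). Neither gene's values overlapped, and each was called in 11 of 14 alternative settings. *Egr3* and *Nr4a3* had log2 changes of -0.53 (limma adjusted p = 0.0636) and 0.05 (0.920). The EGR genes were thus not alike in sign or in call. The NR4A genes were all positive but not alike in call. *Egr4* was below the filter.

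Of the 8 other early response transcription factors 0 were called in either direction (limma). The unadjusted p was under 0.05 for 1 with a higher mean (*Bhlhe40*, adjusted p = 0.0738) and 1 with a lower mean (*Klf2*, adjusted p = 0.0581). *Bhlhe40*, which encodes a repressor known for its link to the circadian clock, had 190, 51.0 and 35.7 FPKM in transgenic and 21.1, 22.4 and 19.9 FPKM in wild-type mice. Its genotypes did not overlap, and it was highest in transgenic replicate 1.

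Of 17 RNA-binding and signalling feedback genes, 0 were higher and 1 was lower, *Errfi1*, an inhibitor of the EGF receptor, with 11.6 ± 1.94 and 18.0 ± 2.98 FPKM (SD, n = 3 each; log2 change -0.59, limma adjusted p = 0.0402, called in 9 of 14 alternative settings). At an unadjusted limma p under 0.05 there were 3 in each direction. The relatives of *Zfp36* and *Dusp1* are on this list. *Zfp36l1* and *Zfp36l2* had log2 changes of -0.18 and -0.20 (adjusted p of 0.232 and 0.275), and none of the 6 other *Dusp* genes was called. *Dusp4* and *Dusp10* had the highest log2 changes of these, 1.00 and 0.59 (adjusted p of 0.0752 and 0.0866), *Dusp2* the lowest, -0.32 (0.105), and *Dusp5*, *Dusp6* and *Dusp16* lay between 0.02 and 0.23.

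Of 17 tested early response effectors, 2 were higher and 2 lower. *Pim1*, a kinase gene, had 91.3, 53.0 and 39.1 FPKM in transgenic and 16.9, 16.5 and 17.0 FPKM in wild-type mice (log2 change 1.71, limma adjusted p = 0.00762). *Cyr61*, which encodes a matrix signalling protein of the CCN family, had 13.1, 8.31 and 9.60 FPKM against 4.13, 4.54 and 4.61 FPKM (1.04, adjusted p = 0.00548). Its relative *Ctgf* went the other way, with 2.97, 2.71 and 3.76 FPKM against 7.84, 10.4 and 4.79 FPKM (-1.02, adjusted p = 0.0290). *Btg1*, an antiproliferative gene, fell from 38.2 ± 2.77 to 26.5 ± 1.26 FPKM (SD, n = 3 each; -0.51, adjusted p = 0.00836). *Pim1*, *Cyr61* and *Btg1* were called in all 14 alternative settings and *Ctgf* in 7.

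Of 19 tested upstream factors and kinases, 0 were higher and 1 was lower, *Crtc3*, a coactivator of CREB, with 6.07 ± 0.464 and 7.84 ± 0.318 FPKM (SD, n = 3 each; log2 change -0.32, limma adjusted p = 0.0372, called in 7 of 14 alternative settings). At an unadjusted limma p under 0.05 there were 0 and 3. *Srf* and *Creb1* had log2 changes of 0.06 and -0.18 (adjusted p of 0.836 and 0.267). Of 8 cytokine mRNAs known as targets of tristetraprolin, 6 were below the filter, and *Tnf* and *Ccl2* had log2 changes of -0.19 and 0.44 (adjusted p of 0.361 and 0.193), both with an unadjusted p over 0.05.

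**Figure D4:**
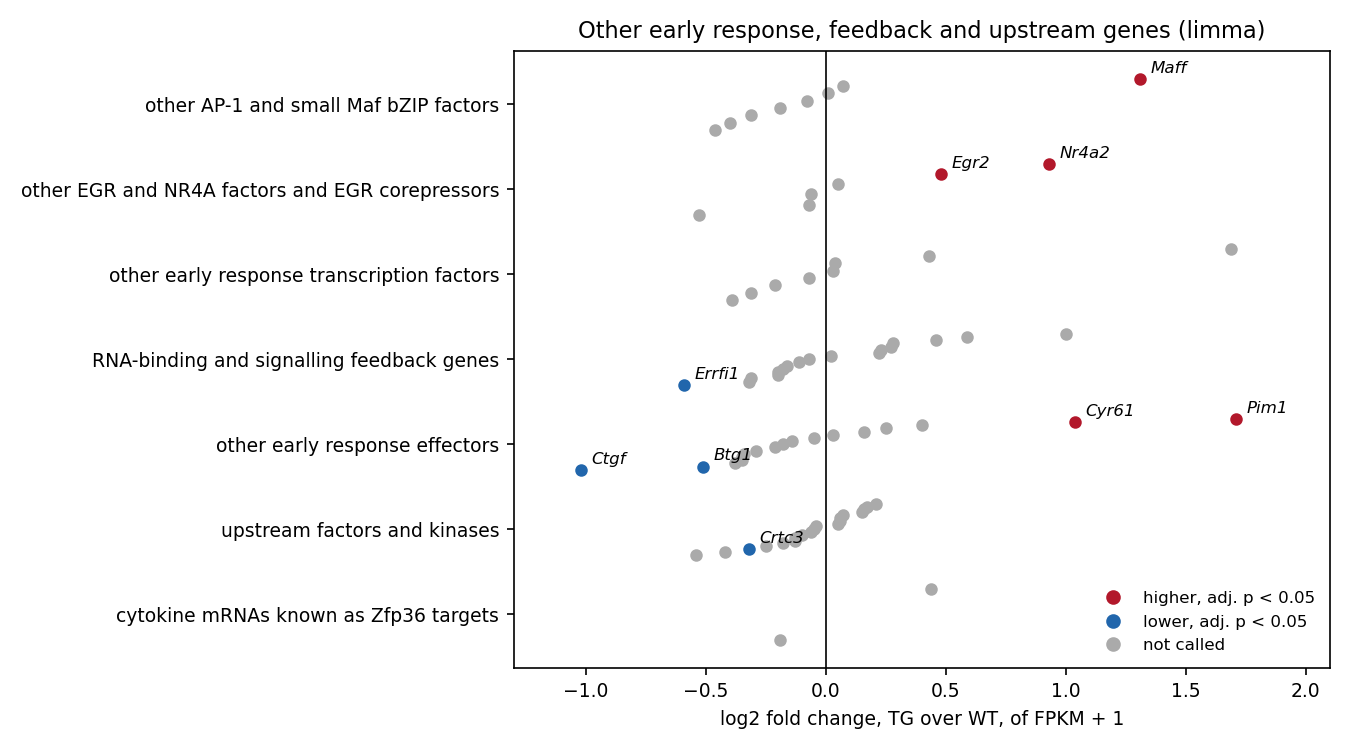
Log2 fold change of FPKM + 1 in transgenic over wild-type iWAT (horizontal axis) of the tested genes of the 7 lists (rows), 1 point per gene, with the genes called at an adjusted p under 0.05 named. The 5 higher genes lie between 0.48 and 1.71 and the 4 lower genes between -1.02 and -0.32, and most points lie near 0.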

How the data were processed

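Total RNA of iWAT was made into TruSeq libraries, 1 per mouse, and sequenced as single-end reads of 100 bases. The authors deposited FPKM per gene locus, made with TopHat2 2.0.9, Bowtie2 2.1.0 and Cufflinks 2.2.1 on mm10 per the labels; the annotation, options and strand setting are not given in the sources used here. Counts were not used here. Depth was estimated from the value of 1 read at loci under 0.3 FPKM and GENCODE transcript lengths, and it covers counting error only.

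From these values, log2(FPKM + 1) of the 6 mice was fitted on genotype alone, and moderated two-sided tests with a mean-variance trend were computed (R 4.3.3, limma 3.58.1). Adjustment by Benjamini-Hochberg ran over the 11692 loci whose average exceeded 1 FPKM in either genotype. The procedure was tested on simulated data. Alternatives were a pseudocount of 0.1, other filters and scalings, no variance trend, quality weights, a replicate block, leaving out each mouse and an adjusted p under 0.01. The members, gene lists, motifs and markers were chosen with earlier results of these data known. The text names all 10 members, up to 4 called genes per list and direction, and the 4 nearest profiles each for *Fos* and *Nr4a1*, of which 1 is not reported here; genes named beyond these were chosen after their values were seen. Promoter sequences are those of RefSeq, and GENCODE gave the antisense overlaps. Figures were drawn with matplotlib 3.10.9.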

Additional observations from a re-analysis of the deposited data

How the results depend on the processing

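The number of members called was small and moved with the setting. Members called higher numbered 2 as reported, 1 with no expression filter, 0 at an adjusted p under 0.01 and 0 to 2 with each mouse left out in turn. Members called lower numbered 1 as reported, 0 with the replicate block, 0 at an adjusted p under 0.01 and 0 to 1 with each mouse left out. The replicate numbers of the labels number different mice, and the correlations of same-numbered deviations were 0.01, 0.03 and 0.07. No mouse correlated best with its own number, but with 3 mice per genotype such small correlations cannot decide whether mice were paired. The numbers were not taken as pairs, because the labels state no pairing. With the replicate block *Zfp36* had an adjusted p of 0.0524. The other early response genes called higher numbered 5 as reported, 8 with the replicate block, 3 at an adjusted p under 0.01 and 3 to 6 with a mouse left out. Those called lower numbered 4, then 1 with no filter, 10 with sample quality weights, 1 at an adjusted p under 0.01 and 1 to 5 with a mouse left out. Over all tested loci, 1352 were called higher and 822 lower, 569 and 199 at an adjusted p under 0.01, and 780 to 1295 and 329 to 906 with a mouse left out. The sign of *Dusp1* turned with sample quality weights (log2 change -0.21) and ranged from -0.35 to 0.30 with a mouse left out, and that of *Fos* ranged from -0.13 to 0.07. The signs of the other 8 members were kept in every setting in which they were tested. *Fosb* was not tested without transgenic replicate 1 or when the filter took the average of the 6 mice, where it fell below 1 FPKM. No member was on several loci, so the planned choice of another locus was not run. The causes of these changes were not tested. Where a mouse was left out, the fit also held fewer mice, and the part of that was not tested either. The estimated reads were fewest for *Fosb*, *Atf3* and *Fos*, and the part of depth in their results was not tested.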

Other observations

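Several genes outside the 10 members were high in the same mouse as *Dusp1* and *Fosb*, transgenic replicate 1. They were chosen after their values were seen. *Bhlhe40* had 190 FPKM there, 3.73 times the next transgenic mouse, *Gadd45g*, a growth arrest gene, 58.5 FPKM (2.41 times), *Klf10*, a zinc finger factor gene, 33.4 FPKM (2.04 times), *Dusp4*, a MAP kinase phosphatase gene, 25.6 FPKM (1.93 times), *Spry2*, an inhibitor of receptor tyrosine kinase signalling, 10.3 FPKM (1.92 times) and *Rhob*, a small GTPase gene, 139 FPKM (1.87 times). The other transgenic mice lay between 67.8 and 74.0 FPKM for *Rhob*, between 23.9 and 24.3 FPKM for *Gadd45g* and between 16.1 and 16.4 FPKM for *Klf10*. Wild-type replicates 1, 2 and 3 had 86.3, 108 and 69.9 FPKM for *Rhob* and 44.1, 28.8 and 30.2 FPKM for *Gadd45g*. For *Klf10* they had 15.7, 13.0 and 16.7 FPKM. Transgenic replicates 2 and 3 thus lay below every control at *Gadd45g*. Of the 77 tested genes of the lists, 45.5% were highest of the 3 transgenic mice in replicate 1, against 43.2% of all tested loci. The relative depth of this library was 0.714 of that of wild-type replicate 3, and that of transgenic replicate 3 was lower still, at 0.690. In the setting with sample quality weights, transgenic replicate 1 had the lowest weight, 0.474, against 0.863 to 1.885 in the other mice. The part of either in these values was not tested.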
